A study of Arabidopsis thaliana with 6 samples.

Results

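The med8med25 and hac1hac5 double mutants of Arabidopsis thaliana were set against each other directly, over all genes, in 12-day-old seedlings. The members are the 4 libraries that carry these genotypes in their labels, 2 a mutant, of 6 libraries in the series. The med8med25 plants were homozygous for mutations in MED8 and MED25 (med8-/- med25-/-), and the hac1hac5 plants for mutations in HAC1 and HAC5 (hac1-/- hac5-/-). The remaining 2 libraries came from wild-type Col-0 seedlings. Their values stand beside those of the mutants as a description, and they share in the estimate of the spread behind each p-value. All plants grew untreated on Murashige and Skoog medium plates at 22 °C with 16 h of light and 8 h of dark, and the insertion or allele in each mutant was not given in the sources used here. Whether the paired libraries of a genotype were made from different cultures is not stated in the labels; the p-values rest on the scatter between these samples alone, and that scatter may be technical.

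Mediator is a large complex that carries signals from DNA-bound transcription factors to RNA polymerase II. MED8 and MED25 are subunits of it, and MED25 in particular is bound by activators of the jasmonate response such as MYC2. HAC1 and HAC5 belong to the CBP/p300 family of histone acetyltransferases, coactivators that acetylate histones at the genes to which activators recruit them. Both kinds of coactivator thus work with DNA-bound activators. The direct contrast shows which transcripts differ between plants with mutations in either kind.

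Recovered depth was 24.9 and 32.3 M reads in the med8med25 libraries, 33.9 and 36.8 M in hac1hac5 and 36.2 and 33.1 M in Col-0. Values are the authors' normalized counts, which are gene counts adjusted to a common library of 32.6 M reads. The SD of the log2 difference between the 2 libraries of a genotype was 0.31 in med8med25, 0.231 in hac1hac5 and 0.186 in Col-0, over 18948 genes. The med8med25 libraries therefore differed most from each other. In whole seedlings, fewer cells of a type and less RNA per cell cannot be told apart. Conditions of growth or harvest that differed between the genotypes cannot be told apart from the mutations.

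The mutants differed at a large part of the transcriptome. Of 23898 genes tested, 9887 (41.4%) passed an adjusted p under 0.05 (limma, Benjamini-Hochberg), and 11969 had an unadjusted p under 0.05. In med8med25, 4999 genes were higher (20.9%) and 4888 were lower (20.5%) than in hac1hac5. The counts of list members below stand against these shares. Log2 changes throughout are med8med25 minus hac1hac5 on the log2(normalized count + 1) scale. A fold threshold below is taken on this scale. The large changes leaned to the lower side: 1074 genes were at least 2-fold higher (4.49% of genes tested) and 1634 at least 2-fold lower (6.84%). At 4-fold or more there were 195 higher (0.816%) and 563 lower (2.36%) genes, and at 8-fold or more 46 (0.192%) and 184 (0.77%). The median over all genes was -0.01, and no scaling alternative moved it by more than 0.1.

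**Figure D1:**
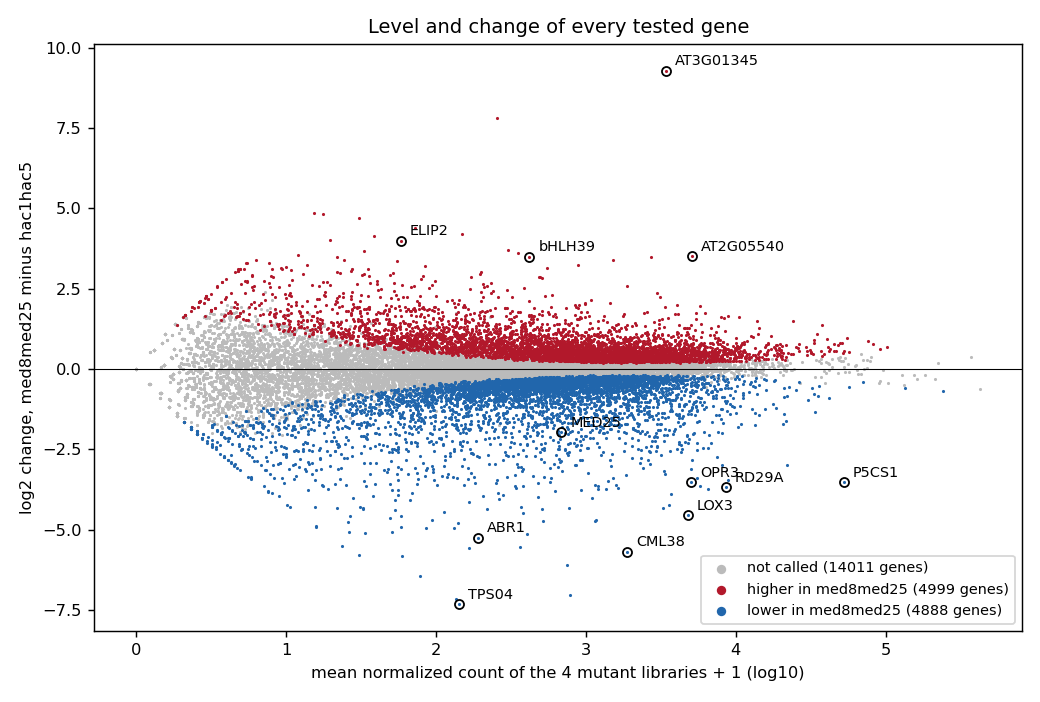
Log2 change of med8med25 minus hac1hac5 (vertical axis) against the mean normalized count of the 4 mutant libraries plus 1 (horizontal axis, log10) for each of 23898 tested genes, with 12 named genes circled. Red points are the 4999 genes called higher in med8med25 and blue points the 4888 called lower, and of the 12 circled genes P5CS1, at a log2 change of -3.52, has the highest level.

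Col-0 lay nearer to med8med25 than to hac1hac5 on the log2 scale for 126 of the 195 genes that were at least 4-fold higher (64.6%), and for 422 of the 563 that were at least 4-fold lower (75%). Among these lower genes, the Col-0 mean was between the mutants at 303, below both mutants at 219 (38.9%) and above both at 41. Among the higher genes it was between the mutants at 163 (83.6%), above both at 25 and below both at 7. At most of the strongly different genes hac1hac5 was thus the farther of the mutants from Col-0, and at 38.9% of the lower ones both mutants were above Col-0. This position was not particular to large changes. Over all called genes, Col-0 was nearer to med8med25 at 64% of the 4999 higher and 62.7% of the 4888 lower genes. It was below both mutants at 32.8% of all lower genes.

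The mutated genes themselves were read first. MED25 had 253.8 and 302.4 normalized counts in med8med25, against 1001 and 1178 in hac1hac5 and 1236 and 1227 in Col-0. It was 3.92-fold lower in med8med25 (log2 change -1.97, SE 0.11, adjusted p = 1.3e-05, limma). MED8 had 307.1 and 322.9 in med8med25, against 900.1 and 864.3 in hac1hac5 and 846.6 and 855.3 in Col-0 (log2 change -1.48, SE 0.08, adjusted p = 1e-05, limma). Both med8med25 libraries were thus below all others at both genes, with reads remaining. HAC1 had 3484 and 3383 in med8med25, 2342 and 2875 in hac1hac5 and 3385 and 3529 in Col-0. The HAC1 difference was small (log2 change 0.40, SE 0.10, adjusted p = 0.011, limma), and the call was lost without hac1hac5 library 1, with no filter on low values and with no mean-variance trend. HAC5 had 1131 and 1195 in med8med25, 800.7 and 1087 in hac1hac5 and 1233 and 1190 in Col-0 and was not called (log2 change 0.32, adjusted p = 0.083, limma); it was called without hac1hac5 library 2. A mutated gene can still give transcript, so the levels of HAC1 and HAC5 do not check the label of hac1hac5.

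Promoters were read for 4 genes that stand for the main groups described below, namely the member with the largest change among the touch, jasmonate synthesis, cold and dehydration, and auxin response genes with a mean of at least 100 in the higher mutant. Each line gives the 250 bases before the annotated gene start, 5′ to 3′ on the coding strand, from RefSeq TAIR10.1. CML38 lies at chr1:28768139-28768388 on the minus strand, LOX3 at chr1:5977073-5977322 on the plus strand, RD29A at chr5:21240467-21240716 on the plus strand and IAA6 at chr1:19673653-19673902 on the minus strand. Capitals mark the letters of any of the motifs searched.
CML38: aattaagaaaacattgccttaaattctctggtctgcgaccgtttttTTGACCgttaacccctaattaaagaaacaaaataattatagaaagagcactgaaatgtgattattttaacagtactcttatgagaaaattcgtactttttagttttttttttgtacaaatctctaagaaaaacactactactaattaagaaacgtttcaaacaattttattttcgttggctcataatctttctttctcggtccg
LOX3: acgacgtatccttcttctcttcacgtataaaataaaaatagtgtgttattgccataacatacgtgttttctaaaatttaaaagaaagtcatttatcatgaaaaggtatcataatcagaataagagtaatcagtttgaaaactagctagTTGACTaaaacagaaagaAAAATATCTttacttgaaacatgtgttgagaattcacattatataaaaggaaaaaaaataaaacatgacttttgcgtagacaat
RD29A: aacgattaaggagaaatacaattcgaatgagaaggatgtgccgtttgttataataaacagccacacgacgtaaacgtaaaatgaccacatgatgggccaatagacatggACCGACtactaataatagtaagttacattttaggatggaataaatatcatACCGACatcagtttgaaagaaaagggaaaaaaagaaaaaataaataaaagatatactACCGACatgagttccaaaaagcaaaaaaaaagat
IAA6: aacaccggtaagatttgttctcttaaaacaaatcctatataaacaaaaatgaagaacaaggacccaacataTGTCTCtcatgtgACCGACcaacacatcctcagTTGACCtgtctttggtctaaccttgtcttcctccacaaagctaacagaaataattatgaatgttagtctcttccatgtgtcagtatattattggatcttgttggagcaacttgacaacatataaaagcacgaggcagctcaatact
CML38, a calmodulin-like calcium sensor, holds 1 W-box (TTGACC, starting 204 bases before the gene start). LOX3, a lipoxygenase of jasmonate synthesis, holds a W-box (TTGACT, 102 bases before) and an evening element (AAAATATCT, 84 bases before). RD29A, a dehydration and cold-induced gene, holds the dehydration response element ACCGAC 3 times, 141, 91 and 34 bases before its start. IAA6, an Aux/IAA repressor of auxin signalling, holds an auxin response element (TGTCTC, 179 bases before), a dehydration response element (ACCGAC, 166 bases before) and a W-box (TTGACC, 146 bases before). The 250 bases before bHLH39, the gene with the largest change among the iron deficiency genes, hold none of the motifs searched.

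The motifs were searched on both strands of 22591 such promoters of tested protein-coding genes on the nuclear chromosomes, as a description without a test. A match shows only that the letters are there. The W-box (TTGACC or TTGACT), a sequence bound by WRKY factors, was in 25.9% of 185 promoters of genes at least 4-fold higher in med8med25, in 38.5% of 506 promoters of genes at least 4-fold lower, and in 28.6% of all promoters. The G-box (CACGTG), bound by bHLH and bZIP factors including MYC2, was in 7.57%, 14.6% and 7.24% of the same sets. Its share was thus highest among the lower genes, as was that of the abscisic acid response element (ACGTGTC; 3.78%, 9.29% and 4.11%), which can overlap a G-box. The CGCG element (CGCGTT), a sequence of rapid stress responses linked to calmodulin-binding factors, was in 1.08%, 5.53% and 2.78%. The dehydration response element (ACCGAC), the binding sequence of CBF and DREB factors, was in 2.7%, 8.3% and 5.03%. Other motifs differed by fewer percentage points between the lower genes and all genes. The GCC-box (GCCGCC) was in 1.08%, 2.37% and 1.89%, the evening element (AAAATATCT) in 2.16%, 3.95% and 2.46%, and the auxin response element (TGTCTC) in 14.1%, 10.3% and 10.8%. Median GC content was 30.8%, 31.6% and 31.2%. By list, ACCGAC was in 7 of 22 cold and dehydration promoters (31.8%), CACGTG in 5 of 13 JAZ promoters (38.5%), and TGTCTC in 9 of 22 Aux/IAA and GH3 promoters (40.9%). The GCC-box was in 5 of 23 touch promoters (21.7%) and in no promoter of the other lists searched. The lists did not all follow the pattern of the lower genes as a whole. The W-box was in 10 of 22 Aux/IAA and GH3 promoters (45.5%), a list higher in med8med25, and in 1 of 22 cold and dehydration promoters (4.55%). The G-box was in 2 of 15 jasmonate synthesis promoters (13.3%), 2 of 23 touch promoters and 6 of 22 cold and dehydration promoters. In lists higher in med8med25 it was in 5 of 22 Aux/IAA and GH3 promoters (22.7%) and 4 of 19 iron deficiency promoters (21.1%). The abscisic acid response element was in 4 of 22 and 4 of 19 of these. Among lower lists it was in 3 of 22 cold and dehydration and 2 of 23 touch promoters. It was in 0 of 15 jasmonate synthesis and 0 of 13 JAZ promoters.

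**Figure D2:**
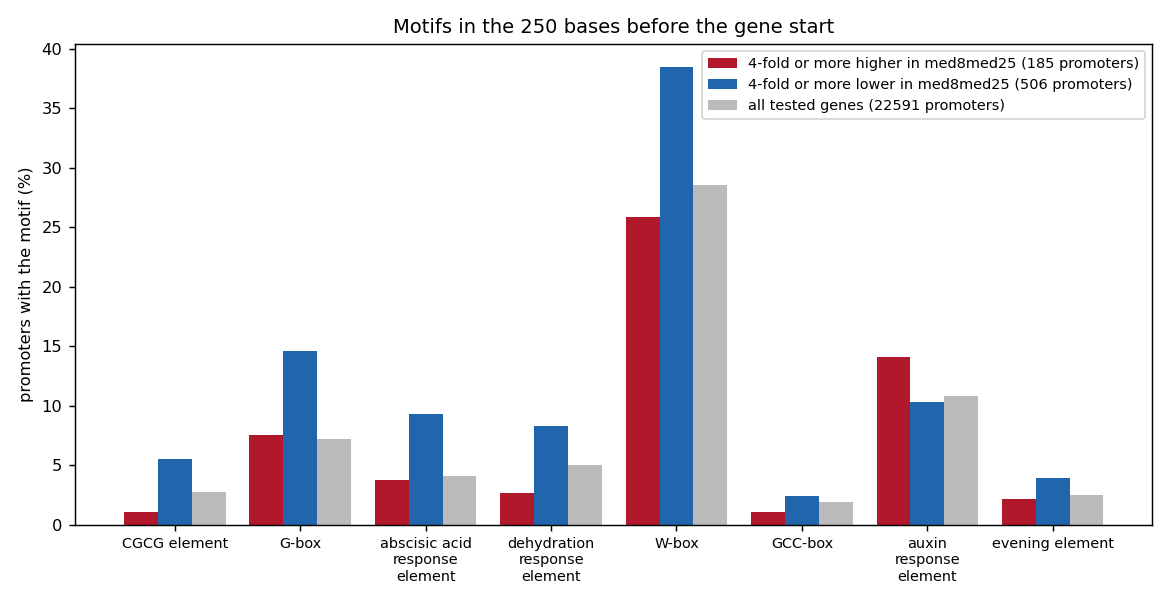
Share of promoters with each motif (vertical axis, percent, from 0) among genes at least 4-fold higher in med8med25 (red, 185 promoters), genes at least 4-fold lower (blue, 506) and all tested genes (grey, 22591). The blue bars are the tallest at every motif except the auxin response element, where the red bar reaches 14.1%.

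Of the 12 genes with the strongest decrease among well-expressed genes whose mutants do not overlap, 5 encode or are annotated as AP2/ERF-type (integrase-type) DNA-binding factors. Such a gap between the mutants' libraries was itself common, at 35.2% of tested genes in each direction. The share of AP2/ERF-type factors among all tested genes was not counted, so the 5 have no background beside them. AT4G28140 had 10.65 and 11.26 normalized counts in med8med25, against 1583 and 1546 in hac1hac5 and 5.846 and 0.05186 in Col-0 (log2 change -7.03, SE 0.70, adjusted p = 0.00017, limma). ERF53 had 46.14 and 9.001 in med8med25, against 1510 and 1446 in hac1hac5 and 13.47 and 21.34 in Col-0; its log2 change of -6.09 became -7.21 without med8med25 library 1 and -4.97 without library 2. RRTF1, a redox-responsive ERF, had 19.16 and 10.21 in med8med25, against 575.8 and 836.8 in hac1hac5 and 0.9555 and 2.131 in Col-0 (log2 change -5.53). At these 3 genes the hac1hac5 libraries were far above all libraries of med8med25 and Col-0. ABR1, an ERF repressor of abscisic acid responses, had 8.058 and 9.397 in med8med25, against 336.2 and 405.4 in hac1hac5 and 10.65 and 7.57 in Col-0 (log2 change -5.25, SE 0.27, adjusted p = 8e-06, limma). AT5G21960 gave 2 reads in the med8med25 libraries together and 347 in hac1hac5, a ratio of 139 after scaling to library size (95% exact interval 38.3 to 1.16e+03). Such intervals cover counting error only. The fitted log2 change of AT5G21960 was -6.44, or -5.73 without med8med25 library 1 and -7.16 without library 2. Other annotated genes overlap RRTF1 and leave 36% of its exon bases to it alone. The strand setting of the counts is not given, so its counts could hold reads from its neighbour or lack reads of its own.

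The other strongly decreased genes include CML38, described with the touch genes, and genes of defence. TPS04, a terpene synthase that makes a defence volatile precursor, gave 2 reads in med8med25 and 643 in hac1hac5, a ratio of 258 (95% exact interval 71.2 to 2.14e+03). Its normalized counts were 0.07095 and 1.897 in med8med25, against 253.2 and 312.4 in hac1hac5 and 61.03 and 38.93 in Col-0. Its fitted log2 change of -7.32 was -6.61 without med8med25 library 1 and -8.04 without library 2. TPS04 was lower in med8med25 than in Col-0. The neighbouring lipid-transfer-type genes AT4G12490 and AT4G12500 showed the same order, with 1 and 3 reads in med8med25 against 599 and 263 in hac1hac5 (ratios 481 and 70.4, 95% exact intervals 86 to 1.9e+04 and 23.8 to 344). They are related genes side by side, so reads could be shared between them, and the hac1hac5 libraries differed at AT4G12490 (430 and 105.1). Its log2 change of -7.16 was -6.14 without hac1hac5 library 1 and -8.17 without library 2, and that of AT4G12500 (-5.82) was -4.92 without med8med25 library 1 and -6.72 without library 2. Of the exon bases of AT4G12490, 64.1% are free of other genes. The wall-associated kinase-like gene WAKL10 had 4.043 and 4.696 in med8med25, 182.7 and 148.4 in hac1hac5 and 16.44 and 15.05 in Col-0 (log2 change -4.95). AT4G33467, which is uncharacterized and has 62.6% of its exon bases free of other genes, had a log2 change of -5.56. AT1G05675, a UDP-glycosyltransferase, rested on med8med25 libraries that disagreed (78.09 and 5.033, against 683.6 and 854.2 in hac1hac5); its log2 change of -5.13 was -6.99 without med8med25 library 1 and -3.27 without library 2, and its call was lost with no filter.

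The 12 genes with the strongest increase had mixed functions. AT3G01345, which encodes an uncharacterized protein, had 6809 and 6780 normalized counts in med8med25, against 14.63 and 6.634 in hac1hac5 and 886.5 and 245.7 in Col-0 (log2 change 9.28, SE 0.53, adjusted p = 1.2e-05, limma). This was the largest log2 change among the 23898 genes tested, and the Col-0 libraries themselves differed there. AT1G75945, also uncharacterized, gave 928 reads in med8med25 and 3 in hac1hac5, a ratio of 385 (95% exact interval 131 to 1.87e+03), and had 395.3 and 372.5 normalized counts in Col-0. The near absence was thus in hac1hac5. Next came AT1G13608, a defensin-like gene (log2 change 4.39), and AT1G07373, a gene annotated as other RNA (4.2). ELIP2, an early light-induced protein of the chloroplast that is made under light stress, had 110.8 and 105 in med8med25, against 10.1 and 3.229 in hac1hac5 and 13.46 and 23.45 in Col-0 (log2 change 3.99, or 3.29 without hac1hac5 library 2 and 4.69 without library 1). The beta-glucosidase genes BGLU34 and BGLU35 had log2 changes of 3.6 and 3.71. At BGLU35 the hac1hac5 libraries were at 19.74 and 85.34, and its change was 2.68 without library 1 and 4.74 without library 2; the call was lost with no filter. At BGLU34 (30.69 and 87.61 in hac1hac5) the corresponding values were 2.86 and 4.34. Among abundant transcripts, AT2G05540, a glycine-rich protein, had 9757 and 8874 in med8med25, against 591.3 and 1148 in hac1hac5 and 3634 and 3713 in Col-0 (log2 change 3.5). AT4G23680 (log2 change 3.47), the lectin gene AT1G52100 (3.39) and AT2G27402 (3.23) likewise had Col-0 levels between the mutants.

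Genes induced by touch and handling were lower in med8med25 at all 23 tested members, with a median log2 change of -1.89. Touch genes encode calcium sensors, WRKY and zinc-finger factors, kinases and ubiquitin ligases that respond within minutes to mechanical stimulation. CML38 had 108.7 and 44.47 normalized counts in med8med25, against 3132 and 4241 in hac1hac5 and 102.4 and 121.1 in Col-0 (log2 change -5.69, SE 0.35, adjusted p = 1.7e-05, limma; -6.33 without med8med25 library 1 and -5.05 without library 2). The med8med25 libraries were at or below the Col-0 level at CML38. They were above it at the related gene CML37, which had 160.8 and 117 in med8med25, against 993 and 1320 in hac1hac5 and 19.33 and 18.27 in Col-0 (log2 change -3.05). PUB24, a ubiquitin ligase of immune signalling, had 175.6 and 107.4 in med8med25, against 994.3 and 1168 in hac1hac5 and 96.66 and 94.47 in Col-0 (-2.96). WRKY53, a factor of senescence and defence, had 302.7 and 89.83 in med8med25, against 948.1 and 1181 in hac1hac5 and 41.51 and 49.26 in Col-0; its change of -2.67 was -3.54 without med8med25 library 1 and -1.80 without library 2, and its call was lost with no filter. At 22 of the 23 members the Col-0 mean was below both mutants. The list's median relative to the Col-0 mean was 1.88 and 1.73 in the med8med25 libraries and 3.43 and 3.75 in the hac1hac5 libraries. Both sets of values use the same Col-0 libraries.

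**Figure D3:**
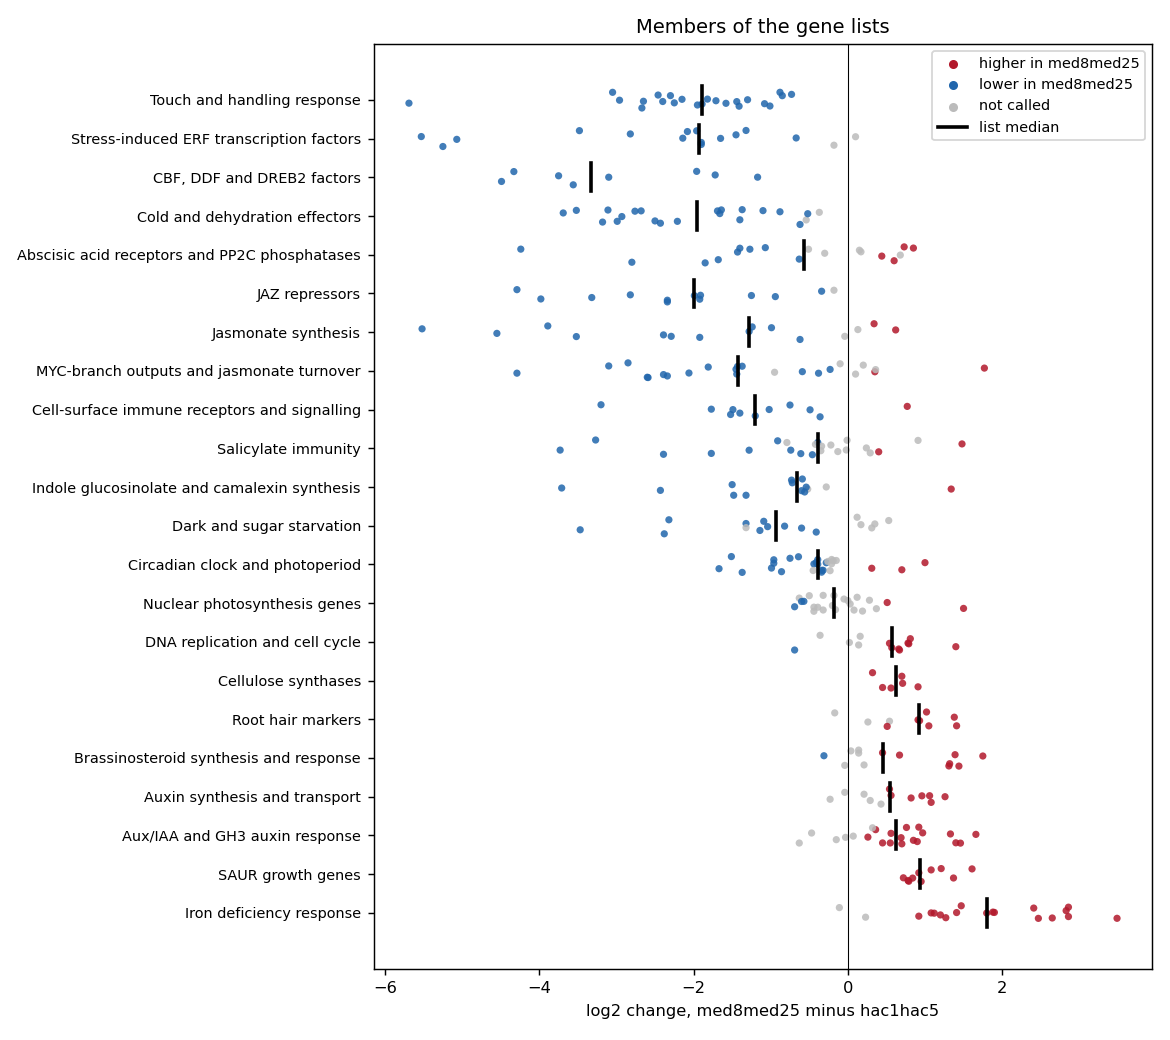
Log2 change of med8med25 minus hac1hac5 (horizontal axis) for each tested member of 22 gene lists (rows), with called members in red or blue, members not called in grey and list medians as black bars. All points of the touch list lie left of 0, and all points of the SAUR list lie right of 0.

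Stress-induced ERF genes followed the same direction. Of 16 tested members, 14 were lower in med8med25 and none was called higher, with a median log2 change of -1.93. Besides ABR1 and RRTF1, ERF11, a repressor with an EAR motif, had 318.9 and 162.4 normalized counts in med8med25, against 2184 and 2957 in hac1hac5 and 26.03 and 35.28 in Col-0 (log2 change -3.48, SE 0.30, adjusted p = 8.2e-05, limma). ERF98 was nearly absent outside hac1hac5, with 7.303 and 0 in med8med25, against 95.67 and 96.44 in hac1hac5 and 1.9 and 6.361 in Col-0. Its log2 change of -5.07 was -6.60 without med8med25 library 1 and -3.55 without library 2, and its call was lost with no filter.

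The CBF, DDF and DREB2 genes encode ERF-family activators that bind the dehydration response element and switch on cold and drought tolerance genes. All 8 were lower in med8med25 than in hac1hac5, with a median log2 change of -3.33, the lowest of the 44 lists. With no filter and without hac1hac5 library 2 the count was 5. CBF1 had 164.6 and 29.98 normalized counts in med8med25, against 726.7 and 984.6 in hac1hac5 and 2.886 and 4.274 in Col-0 (log2 change -3.56, SE 0.64, adjusted p = 0.0029, limma). DDF1 had 62.65 and 13.59 in med8med25, against 497.5 and 944.7 in hac1hac5 and 1.928 and 2.149 in Col-0 (log2 change -4.49). Both mutants were thus above Col-0 at these genes, hac1hac5 by more. DDF2 and CBF4 had no read in Col-0; they gave 2 and 3 reads in med8med25 and 93 and 78 in hac1hac5, ratios of 37.4 and 20.9 (95% exact intervals 10.1 to 313 and 6.89 to 103). The med8med25 libraries disagreed more here than in any other list: library 1 exceeded library 2 by a median of 1.67 on the log2 scale, against -0.42 in hac1hac5. Leaving out med8med25 library 1 or library 2 gave -4.77 and -2.35 at CBF1, -5.56 and -3.43 at DDF1 and -5.22 and -3.43 at DDF2. The call of CBF1 was lost with no filter.

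Cold and dehydration effector genes were lower at 20 of 22 members, with none called higher and a median log2 change of -1.95. RD29A had 1516 and 990.1 normalized counts in med8med25, against 15144 and 16620 in hac1hac5 and 2332 and 2355 in Col-0 (12.7-fold lower, log2 change -3.69, SE 0.17, adjusted p = 5.5e-06, limma). P5CS1, the rate-limiting enzyme of proline synthesis, differed at a high level, with 8456 and 8353 in med8med25, 92036 and 101326 in hac1hac5 and 17384 and 18000 in Col-0 (11.5-fold lower, log2 change -3.52, SE 0.10, adjusted p = 8.4e-07, limma). At these genes med8med25 was below Col-0 while hac1hac5 was above it. COR15B, a chloroplast cryoprotective protein with 70.5% of its exon bases free of other genes, had 185.3 and 98.85 in med8med25, against 1141 and 1344 in hac1hac5 and 238.6 and 285.2 in Col-0 (-3.18). ERD7 had 1158 and 901.3 in med8med25, against 7336 and 10646 in hac1hac5 and 1310 and 1261 in Col-0 (-3.11). At 16 of the 20 called members Col-0 lay between the mutants, and at 2 it was below both. This pattern was unlike that of the CBF genes themselves, at 7 of which Col-0 was below both mutants.

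In abscisic acid signalling, receptors and phosphatases were split. The PYR/PYL receptors bind the hormone and then inhibit the clade A PP2C phosphatases, which otherwise hold the response off. Of 18 tested members 9 were lower and 4 higher in med8med25, with a median log2 change of -0.57. The phosphatase gene HAI1 had 590.3 and 217.3 normalized counts in med8med25, against 6322 and 7263 in hac1hac5 and 203 and 195.4 in Col-0 (log2 change -4.24, SE 0.36, adjusted p = 8e-05, limma; -4.96 without med8med25 library 1 and -3.52 without library 2). HAI2 had 389 and 61.31 in med8med25 against 935.2 and 1266 in hac1hac5, and PP2CA had 7277 and 1859 in med8med25 against 10956 and 12749 in hac1hac5. Without med8med25 library 1 or library 2 the log2 change was -4.13 and -1.48 at HAI2 (main value -2.80) and -2.67 and -0.70 at PP2CA (main value -1.68). Both calls were lost without either hac1hac5 library, with no filter and with no trend. The 4 higher members were all receptors, namely PYR1 (log2 change 0.73), PYL1 (0.60), PYL4 (0.85) and PYL5 (0.44); that of PYL4 was lost without hac1hac5 library 1, with no filter and with no trend. The receptors PYL7 (log2 change -1.85) and PYL9 (-1.07) were lower, and 50.3% of the exon bases of PYL7 are free of other genes.

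**Figure D4:**
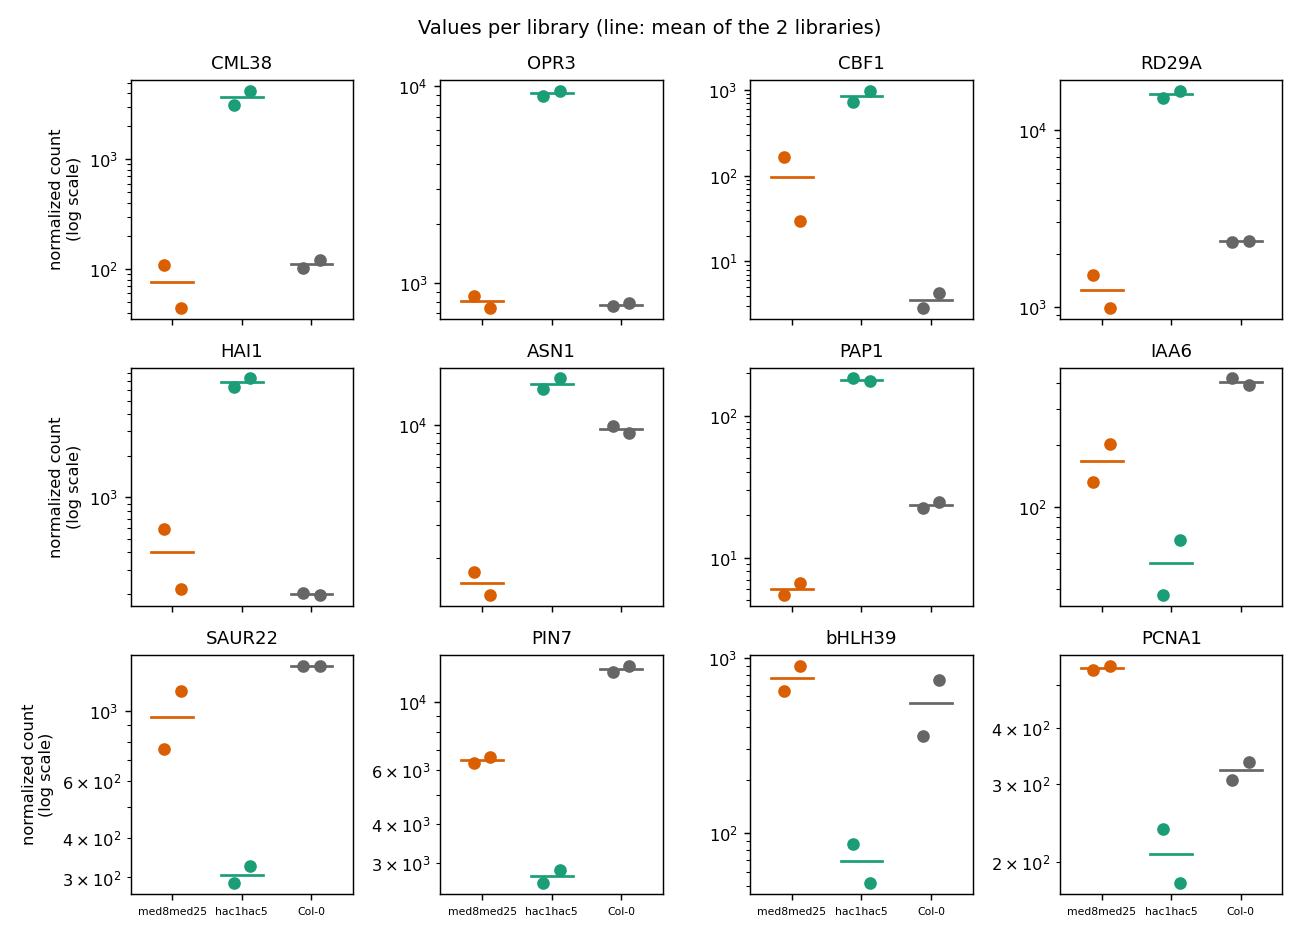
Normalized counts (vertical axes, log scale, a scale for each gene) of 12 genes in the 2 libraries of med8med25 (left), hac1hac5 (middle) and Col-0 (right), with the mean as a line. In the first 7 panels, from CML38 to PAP1, hac1hac5 is the highest genotype; in the last 5, from IAA6 to PCNA1, it is the lowest.

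Jasmonate synthesis was lower at 11 of 15 tested genes in med8med25 and higher at 2, with a median log2 change of -1.28. The pathway starts with lipases and lipoxygenases in the chloroplast and ends with beta-oxidation in peroxisomes. OPR3, the reductase that follows the chloroplast steps, had 861.8 and 747.6 normalized counts in med8med25, against 8965 and 9501 in hac1hac5 and 758.6 and 790.9 in Col-0 (11.5-fold lower, log2 change -3.52, SE 0.09, adjusted p = 8.4e-07, limma). LOX3 had 503.2 and 302.3 in med8med25, against 8324 and 10077 in hac1hac5 and 211.6 and 240.2 in Col-0 (22.8-fold lower, log2 change -4.55). The med8med25 libraries were thus close to Col-0 at OPR3 and somewhat above it at LOX3. LOX4 had 855.8 and 236.6 in med8med25, against 5552 and 8099 in hac1hac5 and 80.05 and 115.5 in Col-0, and its change of -3.89 was -4.82 without med8med25 library 1 and -2.97 without library 2. DAD1, a lipase that releases the precursor fatty acid in stamens, gave no read in med8med25 and 102 in hac1hac5, which is at least 27.3-fold lower against a floor of 3 reads over the group. The higher members were LOX6 (log2 change 0.62) and AOC4 (0.34); LOX6 was lost without hac1hac5 library 1, with no filter and with no trend, and AOC4 without hac1hac5 library 2. LOX2, the abundant leaf lipoxygenase, did not pass the test (log2 change 0.13, adjusted p = 0.27, limma).

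The JAZ genes encode repressors of MYC2 that are themselves induced by jasmonate. Of 13 tested, 12 were lower in med8med25 and none was called higher, with a median log2 change of -1.99. JAZ9 had 1187 and 1332 normalized counts in med8med25, against 8389 and 9370 in hac1hac5 and 1107 and 1071 in Col-0 (7.05-fold lower, log2 change -2.82, SE 0.09, adjusted p = 1.4e-06, limma). JAZ5 had 81.89 and 37.1 in med8med25, against 758.3 and 1034 in hac1hac5 and 37.68 and 38.63 in Col-0 (log2 change -3.98). JAZ8 had 20.31 and 9.245 in med8med25, against 109.1 and 197.9 in hac1hac5 and 1.937 and 1.093 in Col-0 (-3.32). The med8med25 libraries were near the Col-0 level at JAZ9 and above it at JAZ8, and at JAZ5 library 1 was above it and library 2 at it. AT3G22275, annotated as a jasmonate ZIM-domain protein, was weakly expressed outside hac1hac5 (3.752 and 0.9008 in med8med25, 56.83 and 58.58 in hac1hac5, 1.928 and 2.149 in Col-0), and its change of -4.29 was -4.95 without med8med25 library 1 and -3.63 without library 2.

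Outputs of the MYC branch and enzymes of jasmonate turnover were lower at 16 of 23 tested genes (9 with no filter) and higher at 2, with a median log2 change of -1.43. NAC019, a NAC factor induced by jasmonate and dehydration, had 46.17 and 25.1 normalized counts in med8med25, against 567.6 and 831.6 in hac1hac5 and 93.72 and 98.69 in Col-0 (log2 change -4.29, SE 0.29, adjusted p = 2.5e-05, limma). VSP1, a vegetative storage protein and standard jasmonate marker, had 223 and 209.2 in med8med25, against 1267 and 1368 in hac1hac5 and 613.8 and 548.7 in Col-0 (6.1-fold lower, log2 change -2.60). At these outputs med8med25 was below Col-0 and hac1hac5 above it. The 2-oxoglutarate-dependent oxygenase genes AT2G38240 and AT5G05600 had log2 changes of -3.10 and -2.85. CORI3, annotated as a tyrosine transaminase, went the other way, with 1737 and 1398 in med8med25, 399.2 and 521.1 in hac1hac5 and 2054 and 1997 in Col-0 (log2 change 1.77, adjusted p = 5.4e-05, limma). JAM3, a bHLH repressor of the branch, was slightly higher (log2 change 0.35); its call was lost without med8med25 library 1 and without hac1hac5 library 1, with no filter and with no trend. The receptor gene COI1 did not pass (log2 change -0.10, adjusted p = 0.29, limma). MYC2 gave no read in any library; 1.46% of its exon bases are free of other annotated genes, so the files give no usable level for it.

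**Figure D5:**
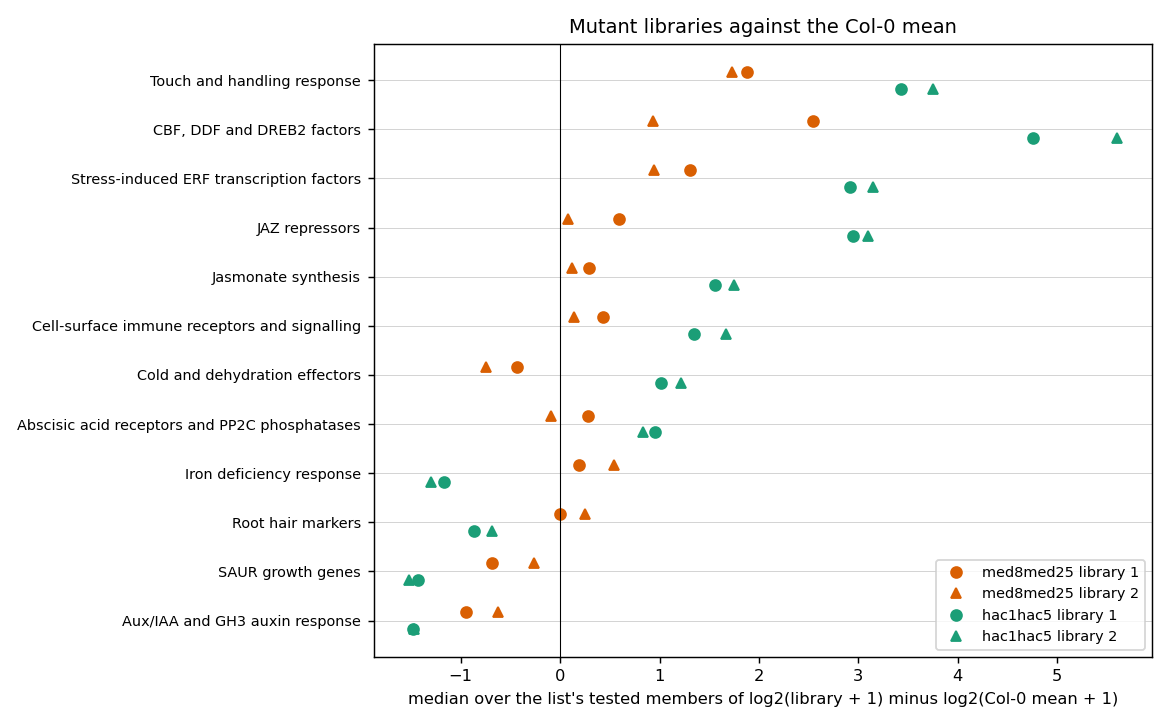
Median over the tested members of 12 lists (rows) of log2(library + 1) minus log2(Col-0 mean + 1) (horizontal axis), with med8med25 libraries in orange and hac1hac5 libraries in green, circles for library 1 and triangles for library 2. The 4 points of a list share the same Col-0 libraries; the CBF, DDF and DREB2 row shows the widest gap between the med8med25 libraries, at 2.54 and 0.93.

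Immune genes were lower at the cell surface and mixed within salicylate signalling. Of 11 genes for pattern receptors and their partners, 10 were lower in med8med25 and 1 higher, with a median log2 change of -1.20. FRK1, a kinase gene induced by flagellin, had 7.993 and 8.447 normalized counts in med8med25, against 79.3 and 88.01 in hac1hac5 and 8.731 and 4.369 in Col-0 (log2 change -3.20, SE 0.36, adjusted p = 0.00029, limma). SOBIR1, a co-receptor kinase with 68.0% of its exon bases free of other genes, had 2186 and 1670 in med8med25, against 6055 and 7019 in hac1hac5 and 1014 and 946.7 in Col-0 (-1.77). LYK5, a chitin receptor, and EFR, the receptor of bacterial elongation factor Tu, had log2 changes of -1.52 and -1.49. The flagellin receptor FLS2 was the exception, with 688.6 and 595.6 in med8med25, 366.4 and 386.8 in hac1hac5 and 1822 and 1937 in Col-0 (log2 change 0.77). It was thus below Col-0 in both mutants.

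In the salicylate list 10 of 23 members were lower (5 with no filter) and 2 higher, with a median log2 change of -0.39. WRKY18, which acts with WRKY40 in basal defence, had 220 and 161 normalized counts in med8med25, against 2325 and 2710 in hac1hac5 and 117.1 and 94.68 in Col-0 (13.2-fold lower, log2 change -3.73, SE 0.17, adjusted p = 5.7e-06, limma). GRX480, a glutaredoxin that links salicylate and jasmonate signalling, had 25.87 and 17.73 in med8med25, against 185.3 and 248.9 in hac1hac5 and 9.696 and 5.442 in Col-0 (-3.27). The classical marker PR1 was low, with 6.492 and 26.54 in med8med25, 89.84 and 61.35 in hac1hac5 and 51.38 and 28.22 in Col-0. Its change of -2.39 was -1.45 without med8med25 library 1 and -3.33 without library 2, and the call was lost without hac1hac5 library 1, with no filter and with no trend. WRKY38 had a log2 change of -1.77, a call lost with no filter. The higher members were ICS1, the main enzyme of salicylate synthesis (log2 change 0.40), and FMO1, which makes N-hydroxypipecolic acid (1.48). Both calls were lost without hac1hac5 library 1 and with no filter, and that of FMO1 also without med8med25 library 2 and with no trend. Without med8med25 library 1, 5 members were higher.

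Defence metabolites differed by branch. In indole glucosinolate and camalexin synthesis 11 of 14 genes were lower and 1 higher, with a median log2 change of -0.66. CYP81F2, which modifies indole glucosinolates, had 79.96 and 27.64 normalized counts in med8med25, against 564.5 and 700 in hac1hac5 and 76.35 and 76.21 in Col-0 (log2 change -3.71, SE 0.40, adjusted p = 0.00025, limma; -4.46 without med8med25 library 1 and -2.96 without library 2). MYB34, a regulator of the branch, had 1222 and 963.2 in med8med25, against 3130 and 2993 in hac1hac5 and 1398 and 1288 in Col-0 (-1.50). The camalexin genes PAD3 and CYP71A13 had changes of -1.48 and -2.43, and the regulator MYB122 was higher (1.34); these 3 calls were lost with no filter. In aliphatic glucosinolate synthesis 9 of 17 genes were lower (2 with no filter, 5 without either hac1hac5 library and 5 with no trend) and 3 higher. The paralogues CYP79F1 and CYP79F2, which convert chain-elongated methionine, moved in opposite directions (log2 changes -1.23 and 1.11); they lie side by side and are alike in sequence, so reads could be shared, and the call of CYP79F1 was lost with no filter. Of 9 myrosinase and specifier genes 4 were lower and 2 higher, with a median log2 change of -0.18. The lower members included ESP (log2 change -0.99), PEN2 (-0.91) and PYK10 (-0.85). The largest change within this list was against them, at ESM1, which steers glucosinolate breakdown away from nitriles. ESM1 had 8130 and 10210 in med8med25, against 2319 and 2399 in hac1hac5 and 31034 and 32492 in Col-0 (3.89-fold higher, log2 change 1.95, SE 0.11, adjusted p = 1.1e-05, limma). The list does not hold the beta-glucosidase genes BGLU34 and BGLU35, whose log2 changes of 3.6 and 3.71 were larger. PAP1, the MYB activator of anthocyanin synthesis, had 5.403 and 6.58 in med8med25, against 183.3 and 174.6 in hac1hac5 and 22.21 and 24.65 in Col-0 (29.9-fold lower, log2 change -4.69, SE 0.25, adjusted p = 8.7e-06, limma). Of 21 tested flavonoid and anthocyanin genes 5 were lower and 1 higher, with a median log2 change of -0.08. Among all tested genes 20.5% were lower and 20.9% higher, so the lower count is near the background. The lower count was 2 with no filter and with no trend. Without med8med25 library 2 the higher count was 3.

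Genes of dark and sugar starvation were lower at 10 of 16 members (6 with no filter), with none called higher and a median log2 change of -0.93. ASN1, the asparagine synthetase induced by darkness and low sugar, had 1705 and 1278 normalized counts in med8med25, against 15348 and 17447 in hac1hac5 and 9841 and 9052 in Col-0 (11-fold lower, log2 change -3.47, SE 0.13, adjusted p = 2.8e-06, limma). BCAT2, an aminotransferase of branched-chain amino acid breakdown, had 30.97 and 39.51 in med8med25, against 166.6 and 207.3 in hac1hac5 and 186.5 and 196.3 in Col-0 (-2.38). DRM1, a dormancy-associated gene, had 1261 and 1313 in med8med25, against 3299 and 3126 in hac1hac5 and 3168 and 2840 in Col-0 (-1.32). At these 3 genes the Col-0 levels were on the side of hac1hac5, so that med8med25 stood apart. DIN2, a beta-glucosidase gene, had a change of -2.32, a call lost with no filter. Total scaling or leaving out either med8med25 library or hac1hac5 library 2 called 1 member higher.

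Auxin response genes were higher in med8med25. Of 22 tested Aux/IAA, GH3 and related genes 16 were higher and none was called lower, with a median log2 change of 0.63; with no filter 7 were higher, and without hac1hac5 library 1 there were 10. Leaving out med8med25 library 2 or hac1hac5 library 1 called 1 lower. HAT2, an auxin-induced homeodomain factor, had 3635 and 4690 normalized counts in med8med25, against 1429 and 1584 in hac1hac5 and 4979 and 5182 in Col-0 (2.76-fold higher, log2 change 1.46, SE 0.12, adjusted p = 5.8e-05, limma). IAA6 had 132.1 and 203.2 in med8med25, against 37.35 and 69.74 in hac1hac5 and 421.5 and 390.8 in Col-0 (log2 change 1.66, SE 0.30, adjusted p = 0.0028, limma). IAA29 had 576.3 and 1030 in med8med25, against 252.1 and 338.5 in hac1hac5 and 4622 and 5191 in Col-0 (1.40). At 15 of the 16 called members Col-0 was above both mutants. The difference between the mutants was therefore one of degree, and IAA29 remained far below Col-0 in both. IAA20, at 8.122 and 10.35 in med8med25 and 3.629 and 2.535 in hac1hac5, lost its call without any 1 of the 4 mutant libraries; the calls of IAA6 and IAA29 were lost with no filter.

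All 10 tested SAUR genes, small auxin-up RNAs that promote cell expansion, were higher in med8med25 (4 with no filter), with a median log2 change of 0.93. SAUR22 had 760.1 and 1152 normalized counts in med8med25, against 287.7 and 325 in hac1hac5 and 1379 and 1377 in Col-0 (log2 change 1.61, SE 0.17, adjusted p = 0.00023, limma). SAUR19 had 249.2 and 389.1 in med8med25, against 131.2 and 109.8 in hac1hac5 and 339.1 and 384 in Col-0 (1.37). Several SAUR genes lie in a cluster of near-identical copies, so reads of 50 bases could be split among them. The efflux carriers PIN7 (log2 change 1.26), PIN4 (1.06) and PIN3 (0.96) were also higher, with 7 of 12 auxin synthesis and transport genes higher and none called lower. PIN7 had 6356 and 6627 in med8med25, against 2574 and 2848 in hac1hac5 and 12562 and 13088 in Col-0.

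Other growth hormones showed single genes with larger changes. In the brassinosteroid list 7 of 13 genes were higher and 1 lower, with a median log2 change of 0.45. BR6OX1, an enzyme of the last steps of synthesis, had 73.4 and 61.81 normalized counts in med8med25, against 19.87 and 18.9 in hac1hac5 and 56.07 and 52.64 in Col-0 (log2 change 1.75, SE 0.22, adjusted p = 0.00056, limma). BAS1, which inactivates brassinosteroids, was higher too (1.39). The lower member, the synthesis enzyme CPD (-0.31), lost its call without med8med25 library 2, without hac1hac5 library 2, with no filter, with no trend, in a fit of the double mutants alone and with the library number as a block. GA20OX1, which makes gibberellin precursors, had 118.3 and 169.3 in med8med25, against 16.14 and 20.8 in hac1hac5 and 332.6 and 297.5 in Col-0 (7.79-fold higher, log2 change 2.88, SE 0.22, adjusted p = 4.8e-05, limma). GA2OX6, which inactivates gibberellin, had 207.7 and 211.1 in med8med25, against 1126 and 1468 in hac1hac5 and 198.1 and 200.7 in Col-0 (6.19-fold lower, log2 change -2.61). The gibberellin list as a whole had 3 higher and 4 lower of 14. Among all tested genes 20.9% were higher and 20.5% lower, so these counts are near the background. In ethylene synthesis 4 of 11 were higher and 2 lower, against the same shares of all tested genes. There ACS4 was higher (log2 change 2.90) and ACS6, a stress-induced member, was lower (-1.26). ACS6 had 2977 and 4345 in med8med25, against 8124 and 9145 in hac1hac5 and 465 and 423 in Col-0. With no filter 1 member of the ethylene synthesis list was higher, and without hac1hac5 library 1 there were 2.

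In the phytochrome and shade list 7 of 15 genes were lower (2 with no filter) and 1 higher. PIF3, a light-labile bHLH factor, had 488.5 and 612.2 normalized counts in med8med25, against 1067 and 1170 in hac1hac5 and 1236 and 1289 in Col-0 (log2 change -1.03, SE 0.11, adjusted p = 0.00026, limma). The shade-induced homeodomain gene HB-2 had a change of -1.0 and its relative HAT1 one of 0.86. Without med8med25 library 2, 2 members were higher. In the clock list 17 of 27 genes were lower and 3 higher, with a median log2 change of -0.39. The daytime repressors PRR9 and PRR5 had changes of -1.67 and -1.51, and the morning factor LHY one of 1.00. LHY had 6585 and 6346 in med8med25, against 3144 and 3303 in hac1hac5 and 2355 and 2441 in Col-0, whereas its partner CCA1 did not pass (log2 change -0.21, adjusted p = 0.062, limma). The time of day of harvest was not given in the sources used here, and its part in these clock differences was not tested.

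Iron deficiency genes were higher in med8med25 at 17 of 19 tested members (11 with no filter), with none called lower and a median log2 change of 1.8, the highest of the 44 lists. Plants short of iron switch on the bHLH factors of subgroup Ib, the reductase FRO2, the transporter IRT1 and nicotianamine synthases. bHLH39 had 645.5 and 893 normalized counts in med8med25, against 86.35 and 51.72 in hac1hac5 and 355 and 744.3 in Col-0 (11.1-fold higher, log2 change 3.49, SE 0.35, adjusted p = 0.00018, limma). bHLH100 had 620.3 and 1157 in med8med25, against 175.5 and 79.27 in hac1hac5 and 586.1 and 1115 in Col-0 (2.83). The hac1hac5 libraries were the lowest at both genes, and the 2 libraries differed in every genotype. The neighbouring gene bHLH38, with 64.3% of its exon bases free of other genes, had a change of 2.86; its call and that of bHLH100 were lost with no filter. AT1G47395, a member annotated only as an uncharacterized protein, had 731.1 and 971.7 in med8med25, against 155.4 and 84.82 in hac1hac5 and 300.2 and 473.5 in Col-0 (2.86). The upstream factor gene FRU, known as FIT, did not pass (log2 change -0.11, adjusted p = 0.54, limma), nor did PYE (0.23, adjusted p = 0.10).

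Root hair markers moved the same way as the iron genes, many of which act in the root. Of 10 root hair markers 7 were higher and none was called lower, with a median log2 change of 0.92, and their summed normalized counts were 8908 and 10350 in med8med25, against 4127 and 4542 in hac1hac5 and 8098 and 7180 in Col-0. PRP3, a proline-rich wall protein of root hairs, had 4131 and 4856 in med8med25, against 1607 and 1770 in hac1hac5 and 3106 and 2767 in Col-0 (log2 change 1.41, SE 0.10, adjusted p = 3.5e-05, limma). Of 12 other root markers 6 were higher and 3 lower, and their sum was 11443 and 10790 in med8med25, against 8687 and 9102 in hac1hac5 and 12008 and 11217 in Col-0. CASP1 of the endodermis was higher (log2 change 0.80), and the thalianol genes THAH (-1.14) and THAS1 (-0.64) and the potassium transporter HAK5 (-1.91) were lower. Each root marker had a read in at least 1 library. The part of root hairs or root mass in the iron result was not tested.

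Photosynthesis genes, which mark the green shoot, summed to 3189744 and 2636715 normalized counts in med8med25, against 3392947 and 3338520 in hac1hac5 and 4619842 and 4767671 in Col-0. Of 23 tested, 3 were lower and 2 higher, with a median log2 change of -0.18. Among all tested genes 20.5% were lower and 20.9% higher, so these counts are below the background. The counts depend on the fit: total scaling called 11 lower and 4 higher, the test on recovered reads (edgeR) 8 lower, leaving out med8med25 library 1 gave 8 lower, and leaving out hac1hac5 library 2 gave 0. RBCS1B, a small subunit of Rubisco, had 23543 and 17269 in med8med25, against 6914 and 7310 in hac1hac5 and 12697 and 13210 in Col-0 (log2 change 1.5, SE 0.13, adjusted p = 9.7e-05, limma). It lies among near-identical copies, so reads could be split between them. Nitrate genes were higher at 4 of 7 (1 with no filter, 2 with no trend): NRT1.1, the nitrate sensor and transporter, had 8824 and 7711 in med8med25, against 3617 and 3815 in hac1hac5 and 8423 and 8202 in Col-0 (1.15). NRT1.8, which unloads nitrate from the xylem under stress, was lower (-2.15), and without med8med25 library 1 there were 2 lower.

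Genes of DNA replication were higher at 8 of 13 and lower at 1, with a median log2 change of 0.57. PCNA1, the sliding clamp of DNA polymerase, had 540.8 and 550.8 normalized counts in med8med25, against 237.1 and 179.1 in hac1hac5 and 306.3 and 335.8 in Col-0 (2.62-fold higher, log2 change 1.40, SE 0.14, adjusted p = 0.00018, limma). The replicative helicase subunits MCM3 (0.81), MCM5 (0.79) and MCM2 (0.78) were higher as well. The cytokinesis syntaxin KN was lower (-0.69), with 66.5% of its exon bases free of other genes. All 6 cellulose synthase genes were higher, with a median log2 change of 0.63; 2 were called with no filter, and 3 without either hac1hac5 library and with no trend. CESA8 of secondary walls had 687.6 and 616.3 in med8med25, against 312.7 and 383.9 in hac1hac5 and 422.3 and 473.1 in Col-0 (0.91). Wall-loosening genes were split, with 8 higher and 8 lower of 22 (3 and 4 with no filter; 5 higher without hac1hac5 library 2 and 5 lower without library 1). XTH8 had 884.5 and 693 in med8med25, against 238.6 and 206.2 in hac1hac5 and 1308 and 1241 in Col-0 (log2 change 1.81). Of 15 heat shock genes 4 were higher, led by HSP70 (log2 change 1.75) and HSP90.1 (1.16), and none was called lower. The list's median log2 change was 0.01 and 20.9% of all tested genes were higher, so the count is near the background; 1 member was lower with median-of-ratios scaling, with no trend, without med8med25 library 1 and in the test on recovered reads.

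Floral repressor genes were lower in med8med25 at 8 of 17 members and higher at 1, with a median log2 change of -0.29, against 20.5% lower among all tested genes; the lower count was 2 without hac1hac5 library 1, 4 without hac1hac5 library 2 or med8med25 library 1, 3 with no filter, 2 with no trend and 5 in a fit of the double mutants alone. TOE1, an AP2-type repressor, had 2482 and 2381 normalized counts in med8med25, against 4649 and 4625 in hac1hac5 and 2193 and 2219 in Col-0 (log2 change -0.93, SE 0.06, adjusted p = 3.1e-05, limma). FLC, the MADS-box repressor, had 260.4 and 258 in med8med25, against 386.9 and 311.8 in hac1hac5 and 20.31 and 18.28 in Col-0, and did not pass (log2 change -0.42, adjusted p = 0.074, limma). It was thus above Col-0 in both mutants by more than the mutants differed, with 31.9% of its exon bases free of other genes. Of 13 floral activators only SOC1 was called, with 853.1 and 785.3 in med8med25, 1781 and 2518 in hac1hac5 and 3033 and 3009 in Col-0 (log2 change -1.37, SE 0.14, adjusted p = 0.0002, limma). With no trend 2 activators were lower, and without med8med25 library 2 there was 1 higher. None of 6 floral organ genes was called, and their sum was 38.26 and 58.4 in med8med25, against 29.53 and 43.44 in hac1hac5 and 123.6 and 137.3 in Col-0.

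Most changes in the coactivator families themselves were small. Of 32 other Mediator subunit genes 7 were lower and 4 higher, against 20.5% lower and 20.9% higher among all tested genes, so the counts are near or below the background; 3 were lower and none higher without hac1hac5 library 1, and 3 lower and 1 higher without hac1hac5 library 2. The largest change was at AT5G03220, the Med7 subunit (-0.62), a call lost without hac1hac5 library 2 and with no filter. Among 10 other histone acetyltransferase genes 4 were lower and 1 higher, and the lower count was 2 without med8med25 library 1 or either hac1hac5 library. The largest change was at HAC2, of the CBP family, which gave 3 reads in med8med25 and 23 in hac1hac5, a ratio of 6.16 (95% exact interval 1.86 to 32). Its fitted log2 change was -2.02 (adjusted p = 0.024, limma), and the call was lost without either med8med25 library, without hac1hac5 library 1, with no filter and with a pseudocount of 0.1. HAC4, of the same family, had 442.6 and 429.7 normalized counts in med8med25, against 656.1 and 686.4 in hac1hac5 and 538.3 and 584.7 in Col-0 (log2 change -0.62, SE 0.09, adjusted p = 0.00092, limma). Of 13 histone deacetylase genes 5 were higher and 4 lower, with a median log2 change of -0.05; 3 were higher with no filter, with no trend and without hac1hac5 library 2. HDA2 had 154.4 and 146.3 in med8med25, against 359.4 and 342.5 in hac1hac5 and 295.8 and 268.5 in Col-0 (-1.22). The plant-specific HD2-type genes HDT2 (0.66) and HDT4 (0.55) were higher.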

How the data were processed

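RNA-seq of total RNA (TRIzol; single-end reads of 50 bases, per the labels' protocols) gave 1 table of 32548 genes by 6 libraries. Per the submitters' processing notes, HISAT2, featureCounts, edgeR and the TAIR10 build were used; versions, annotation, strand setting and the handling of multi-mapping reads are not given in the sources used here. Each deposited value is a normalized signal, namely the authors' counts adjusted by edgeR to a common library, as the values themselves show. Inverting that adjustment returned whole reads for 100% of 195288 values within a relative tolerance of 1e-06 (common dispersion 0.00697), 24.9 to 36.8 M per library; 6389 genes had no read.

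The values were tested as log2(value + 1) with limma 3.58.1 in R 4.3.3 (mean-variance trend, two-sided, Benjamini-Hochberg), in 1 fit of all 6 libraries by genotype with 3 residual degrees of freedom. A gene entered where 2 or more libraries reached a value of 1, which left 23898 genes, and an adjusted p under 0.05 is a call. An exact permutation test of 2 against 2 libraries cannot pass this threshold and was not used. As an alternative chosen after seeing the data, edgeR 4.0.16 (quasi-likelihood) on the recovered reads called 5085 genes higher and 4856 lower of 21007. The limma and edgeR steps were tested on simulated data. Other alternatives were another pseudocount, filters, scalings, fits of fewer libraries, no trend, the library number as a block and each mutant library left out in turn.

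The comparison and the 44 gene lists (652 members, 640 tested) were chosen with earlier results of these data known. The text draws on the mutated genes, the 12 largest called changes in each direction with a mean of at least 100 in the higher mutant and no overlap, up to 4 called members per list with the largest change, and called members that went against their list. FLC, FRU, PYE, LOX2, COI1, CCA1, PYL9 and MYC2 were named after their values were seen. Names and promoters came from RefSeq TAIR10.1.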

Additional observations from a re-analysis of the deposited data

How the results depend on the processing

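Of 215 genes chosen by rule, 213 were called; 74 lost the call under at least 1 alternative, 65 of them with no filter, and none changed direction. With no filter, 3188 genes were higher and 3367 lower in med8med25. In a fit of the double mutants alone, without the Col-0 libraries, 4135 were higher and 4155 lower, and 15 named calls were lost. Leaving out 1 mutant library in turn gave 3584 to 4893 higher and 3267 to 5065 lower. With the replicate block, 4547 were higher and 4457 lower. The mutants' deviations between libraries 1 and 2 had r = -0.23 over genes. That value rests on 1 pair of libraries per mutant, so it cannot show whether libraries of the same number share a batch. The numbers are used here only to name libraries. In a fit of the 4 mutant libraries, chosen after seeing the data, the block as numbered gave 3859 higher and 3898 lower genes, and crossed numbers gave 4583 and 4608. Total scaling gave 4480 and 4739, no trend 3766 and 3914, and edgeR on recovered reads 5085 and 4856. With 2 libraries a genotype and 24.9 to 36.8 M reads, small changes and genes with few reads were measured least well.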
